A study of Mus musculus with 2 samples.

Results

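The Mir322, Mir503 and Mir351 cluster is a set of 7 microRNA genes on the mouse X chromosome: Mir322, Mir503, Mir351, Mir542, Mir450a-2, Mir450a-1 and Mir450b. The members were taken by gene name from GENCODE M21, out of 2202 microRNA genes counted. That annotation lists Mir450a-1 and Mir450a-2 as Mir450-1 and Mir450-2, and these were matched through the RefSeq synonyms. The samples are gastrocnemius, the large calf muscle, of adult male mice labelled as strain 5xFAD/CAST and aged 8 to 10 months. 5xFAD is a transgenic line made to model brain amyloid, with transgenes expressed in neurons, and the CAST strain descends from wild-caught mice. Whether the sampled animals carried the transgenes is not stated in the labels. There are 2 libraries of 1 group, biological replicates 1 and 2, made from RNA under 30 bases. Both name the same donor record, and no label states that the tissue samples came from separate animals, so the spread and p-values below may reflect technical variation. No condition, treatment or genotype was contrasted, so the results are the levels of the members, their proportions, and how far the libraries differed.

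MicroRNAs are short RNAs that are excised from hairpins and direct the silencing of messenger RNAs that pair with their seed, bases 2 to 8 of the mature strand. A hairpin can yield a mature strand from its 5′ arm (5p) and from its 3′ arm (3p). Clustered hairpins are commonly cut from a shared primary transcript. In cultured mouse myoblasts, miR-322 and miR-503 are known to be induced on differentiation and to promote cell cycle exit through repression of Cdc25a, a phosphatase that drives the cycle. Adult muscle consists mainly of post-mitotic fibres, with few proliferating myoblasts.

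The 7 hairpins span 6353 bases of the minus strand, at chrX:53047997-53054349 in mm10 (GRCm38). In the direction of transcription Mir322 comes first, at chrX:53054255-53054349. Mir503 follows after a gap of 200 bases, at chrX:53053984-53054054, and Mir351 after a further 630 bases, at chrX:53053255-53053353. A gap of 3767 bases then separates Mir351 from Mir542, at chrX:53049403-53049487. The last hairpins are Mir450a-2 at chrX:53048299-53048367, Mir450a-1 at chrX:53048154-53048244 and Mir450b at chrX:53047997-53048078, with 54 and 75 bases between neighbours. In RefSeq the long non-coding RNA gene C430049B03Rik, whose synonyms include mir-322, mir-351 and mir-503, spans 53053112 to 53057190 and contains 3 of the members, those named in the synonyms. In GENCODE M21 none of the 7 hairpins lies within the span of another gene, exonic or intronic. There, C430049B03Rik ends 696 bases upstream of Mir322, and the lincRNA Gm28730 lies between Mir351 and Mir542.

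Mature sequences are shown so that their seeds can be compared. The 5p strand is given for each member except Mir542, for which the 3p strand is given. The sequences are from RefSeq (GRCm38.p6), and capitals mark the seed.
miR-322-5p: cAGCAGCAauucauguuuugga
miR-503-5p: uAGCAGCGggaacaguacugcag
miR-351-5p: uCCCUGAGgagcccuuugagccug
miR-542-3p: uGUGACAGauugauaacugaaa
miR-450a-5p: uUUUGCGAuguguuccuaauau
miR-450b-5p: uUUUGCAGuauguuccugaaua

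Mir322 and Mir503 have bases 2 to 7 in common, AGCAGC, and differ at base 8. Among the mature sequences of the RefSeq table, 12 genes carry AGCAGC at bases 2 to 7, and 11 of them, Mir322 included, carry the full Mir322 seed. Of the other 10 genes with that seed, 6 were detected, all in the miR-15/16 family, which is known for restraint of the cell cycle. The full Mir503 seed was found in no other gene of the table. Mir351 has the seed of the miR-125 family, and its first 8 bases are identical to those of miR-125a-5p and miR-125b-5p, after which 10 of 24 positions in all match miR-125a-5p. Mir450a-5p and Mir450b-5p are identical at 15 of 22 positions and differ within the seed. Of their 3p strands, miR-450a-1-3p and miR-450b-3p have the same full seed, UUGGGAA, and identical first 18 bases. The miR-450a-2-3p strand has another seed, UUGGGGA.

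Mir450a-1 and Mir450a-2 carry the same 5p strand, which no other GENCODE M21 transcript holds. Each of the other 5p and 3p strands of the 7 members was found in 1 gene among 77668 whose transcripts were searched. Both Mir450a hairpins are shown for that reason, with their longest common run of 25 bases in capitals.
Mir450a-1: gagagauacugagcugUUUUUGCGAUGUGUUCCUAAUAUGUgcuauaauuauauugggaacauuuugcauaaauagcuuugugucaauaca
Mir450a-2: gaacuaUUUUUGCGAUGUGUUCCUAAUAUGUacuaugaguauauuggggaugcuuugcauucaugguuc

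The 22 bases of miR-450a-5p lie within that run, so a read of this strand aligns to both places. By the layout of the deposited counts, reads that align to several places are in no gene. How many reads these 2 members lost in this way is not known. No other member had 20 bases in a row in common with a further microRNA gene, although Mir450b shared 19 with Mir450a-1. The longest run that Mir322, Mir503, Mir351 or Mir542 shared with any other microRNA gene was 11 to 13 bases.

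Replicate 1 held 1157420 reads on the sense strand of microRNA genes and replicate 2 held 1193393, and levels are given as reads per 1000000 of these sense reads (CPM). For each sense read, 3.18 reads aligned to several places in replicate 1 and 3.51 in replicate 2. The limit set by a count of 0, taken as 3 counts, is 2.59 CPM for replicate 1 and 2.51 CPM for replicate 2. All intervals are exact binomial 95% intervals, and they and these limits cover counting error only, since reads copied by PCR, with no molecular identifier, can stem from the same molecule. The skeletal muscle microRNAs were present: Mir206 had 38135 and 39300 reads in replicates 1 and 2, and 8 of 9 muscle markers were detected. Levels, ranks and shares count reads assigned to 1 gene and leave out those aligned to several places. Detected means 2 CPM or more in both libraries.

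Taken as a unit, the cluster held 3560 reads in replicate 1 and 3871 in replicate 2. This was 0.308% of sense microRNA reads in replicate 1 (0.298 to 0.318) and 0.324% in replicate 2 (0.314 to 0.335), a mean of 0.316% ± 0.0119 (SD, n = 2). No read lay on the opposite strand at any member in either library, which allows up to 0.0843% of the cluster's sense reads in replicate 1 and 0.0775% in replicate 2. Of the 7 members, 5 were detected (71.4%), against 321 of 2202 microRNA genes (14.6%). The libraries are of whole muscle, in which fewer cells of a type and less RNA per cell cannot be told apart.

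Mir322, the first hairpin and the member known from myoblast cell cycle exit, had 2991 reads in replicate 1 and 3534 in replicate 2. Its level was 2584 CPM (2493 to 2678) in replicate 1 and 2961 CPM (2865 to 3060) in replicate 2, or 2773 ± 267 CPM (SD, n = 2). It ranked 37 among the 321 detected genes and was the most abundant member in both libraries. It made up 84.0% of the cluster's reads in replicate 1 (82.8 to 85.2) and 91.3% in replicate 2 (90.4 to 92.2).

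Its hairpin is shown because most of the cluster's reads fall in it; capitals mark the 5p and the 3p strand. The counts are per hairpin and do not say from which strand a read came.
Mir322: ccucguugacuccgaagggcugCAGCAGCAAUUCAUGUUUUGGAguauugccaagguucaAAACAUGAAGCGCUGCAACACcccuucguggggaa

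Mir503, whose hairpin starts 295 bases downstream of the start of Mir322, had 48 reads in replicate 1 and 31 in replicate 2. These were 41.5 CPM (30.6 to 55.0) and 26.0 CPM (17.6 to 36.9), so the counting intervals overlapped. For each 100 reads of Mir322 there were 1.6 reads of Mir503 in replicate 1 and 0.877 in replicate 2. The 2 members linked to cell cycle exit thus differed widely in counted level, although their hairpins lie 200 bases apart.

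Mir351, which in mouse muscle is known to target the cell cycle factor E2f3, had 461 reads in replicate 1 and 245 in replicate 2. Its level was 398 CPM (363 to 436) in replicate 1 and 205 CPM (180 to 233) in replicate 2, or 302 ± 136 CPM (SD, n = 2). It was the next most abundant member, ranked 89 among detected genes, and its intervals in the libraries did not overlap. Mir322, Mir503 and Mir351 together held 98.3% of the cluster's uniquely aligned reads in replicate 1 and 98.4% in replicate 2.

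The members downstream of the long gap had few reads. Mir542, whose human counterpart is known for targeting the survivin gene BIRC5, had 48 reads in each library, or 41.5 CPM (30.6 to 55.0) in replicate 1 and 40.2 CPM (29.7 to 53.3) in replicate 2. Mir450b had 10 reads in replicate 1 and 12 in replicate 2, or 8.64 CPM (4.14 to 15.9) and 10.1 CPM (5.20 to 17.6). Mir450a-2 had 1 read in each library, and Mir450a-1 had 1 read in replicate 1 and 0 in replicate 2. The counts of these 2 members leave out reads of their common 5p strand, so they do not show a low level.

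**Figure D1:**
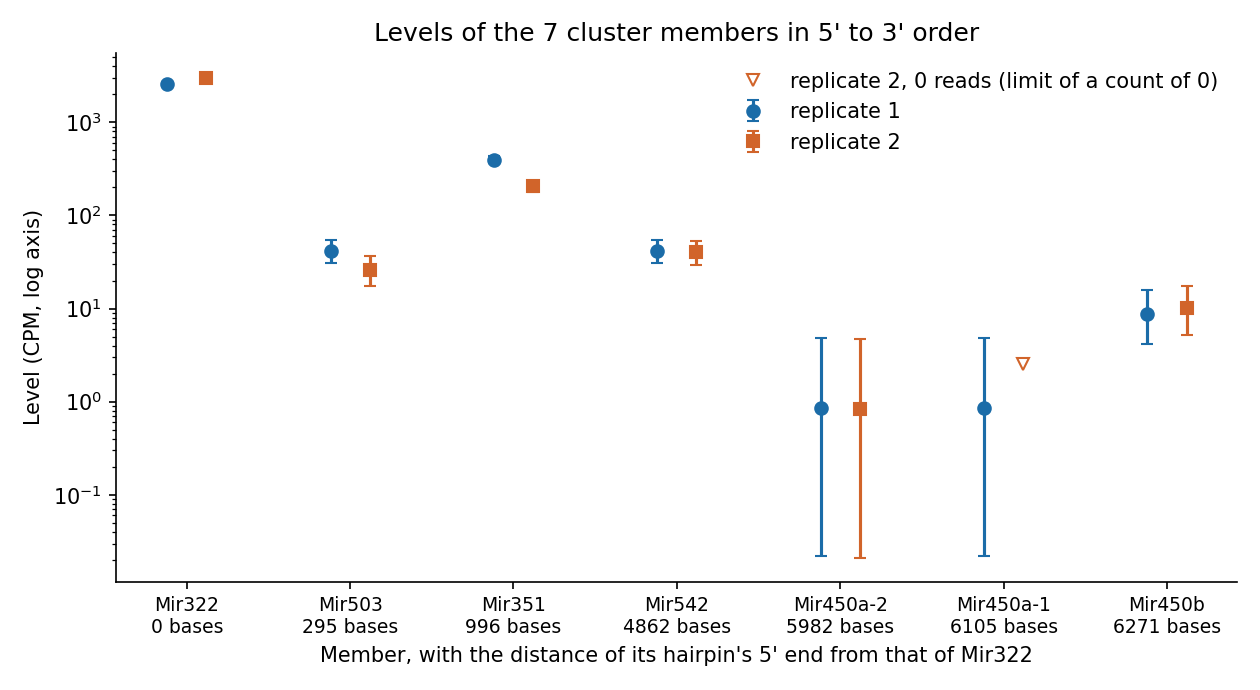
Level of each member (CPM, log axis) in the order of transcription; circles are replicate 1, squares replicate 2, with exact 95% counting intervals, and the distance in bases from the start of Mir322 under each name. Mir322 stands highest at 2584 and 2961 CPM and Mir450a-1 and Mir450a-2 lowest at 1 read or fewer per library; the open triangle marks the limit of 2.51 CPM that a count of 0 allows.

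Ordered by mean level, Mir322 was followed by Mir351, Mir542, Mir503, Mir450b, Mir450a-2 and Mir450a-1. The range over both libraries of Mir322 lay wholly above that of Mir351, that of Mir351 above that of Mir542, and that of Mir503 above that of Mir450b. Mir542 and Mir503 did not differ beyond the spread: their ranges overlapped, with 48 reads each in replicate 1. Mir450a-2 and Mir450a-1 could not be ordered at these counts, and their place in the order leaves out reads aligned to both.

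The libraries were then compared. Each gene detected in both was tested with an exact binomial test of replicate 1 over replicate 2, scaled by TMM and adjusted by Benjamini-Hochberg over all 321 detected genes. This compares 2 libraries of 1 group and not conditions. Each ratio of a gene between the libraries is on the TMM scale unless total counts are named. It therefore differs from the quotient of the CPM values, which are not TMM scaled. The test called 37.4% of the genes at an adjusted p under 0.05. Among the 5 detected members 1 was higher in replicate 1, against 18.7% of all tested genes, 1 was lower in replicate 1, against 18.7%, and 3 were not called. The share of members called is thus near that of all genes.

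Mir322 was lower in replicate 1, at 0.706 times its TMM-scaled level in replicate 2 (0.672 to 0.741; exact binomial adjusted p = 8.9e-44). Mir351 was higher in replicate 1, at 1.57 times its TMM-scaled level in replicate 2 (1.34 to 1.84; exact binomial adjusted p = 4.1e-08). Of the 128 genes with a mean of 100 CPM or more, Mir322 and Mir351 included, 43 had an absolute log2 ratio of at least the 0.50 of Mir322, and 32 of at least the 0.65 of Mir351. In an exact test of edgeR with the dispersion set to 0.01, which allows for spread beyond counting error, Mir351 passed (adjusted p = 0.0361) and Mir322 did not (adjusted p = 0.0782), and 53 of 321 genes were called.

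Mir503 had a ratio of 1.29 (0.805 to 2.10; exact binomial adjusted p = 0.491), Mir542 of 0.834 (0.547 to 1.27; exact binomial adjusted p = 0.581) and Mir450b of 0.695 (0.269 to 1.75; exact binomial adjusted p = 0.578). The interval of each includes 1, and no difference was detectable at their 10 to 48 reads per library. With total counts only, the median log2 ratio of all tested genes was 0.30, against 0.01 with TMM. Mir322 and Mir351 kept their directions there, at ratios of 0.873 and 1.94, while the ratio of Mir542 was 1.03.

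**Figure D2:**
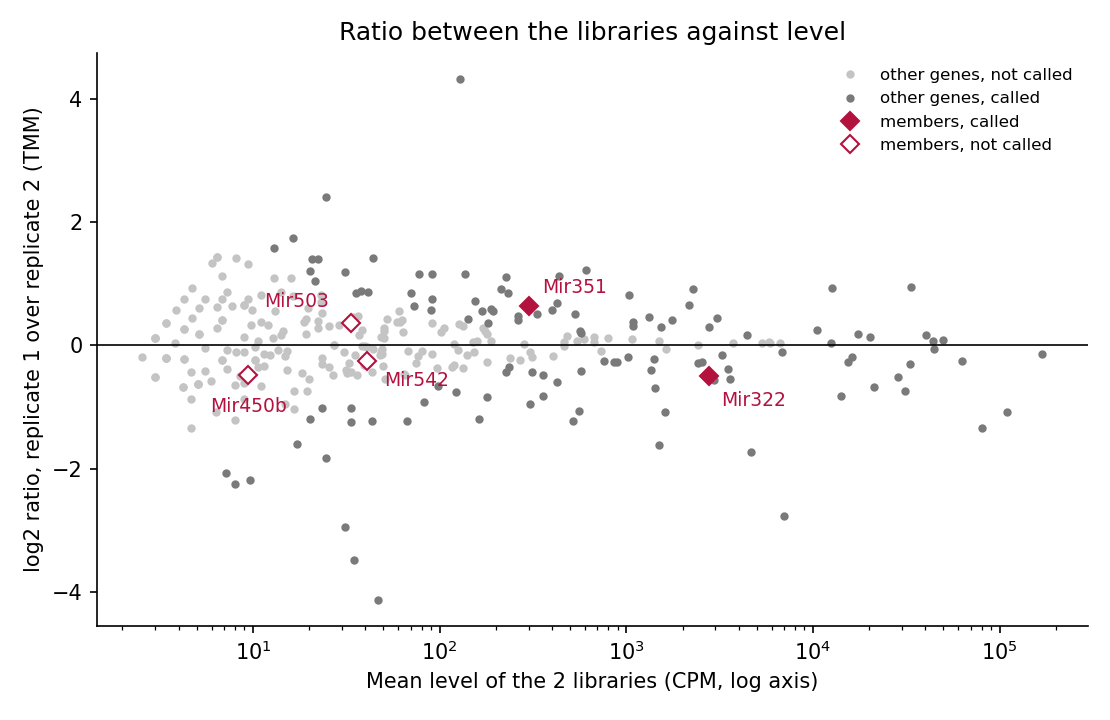
log2 ratio of replicate 1 over replicate 2 (TMM scaled) against mean level (CPM, log axis) for the 321 detected genes, with the 5 detected members as diamonds, filled where the exact binomial test called them. Mir351 lies above 0 at 0.65 and Mir322 below 0 at -0.50, and many other genes at like levels lie as far from 0.

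The proportions of members within a library do not depend on the scaling between libraries. For each 100 reads of Mir322, Mir351 had 15.4 reads in replicate 1 and 6.93 in replicate 2. Relative to Mir322, Mir351 was 2.22 times as high in replicate 1 as in replicate 2 (1.88 to 2.63). Mir503 was likewise higher relative to Mir322, at 1.83 times (1.14 to 2.98). Mir542, at 1.18 times (0.773 to 1.81), and Mir450b, at 0.985 times (0.38 to 2.49), had intervals that include 1. These intervals are for counting error alone. Within that error the proportion to Mir322 differed between the libraries for Mir351 and Mir503, and no difference was detectable for Mir542 and Mir450b.

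**Figure D3:**
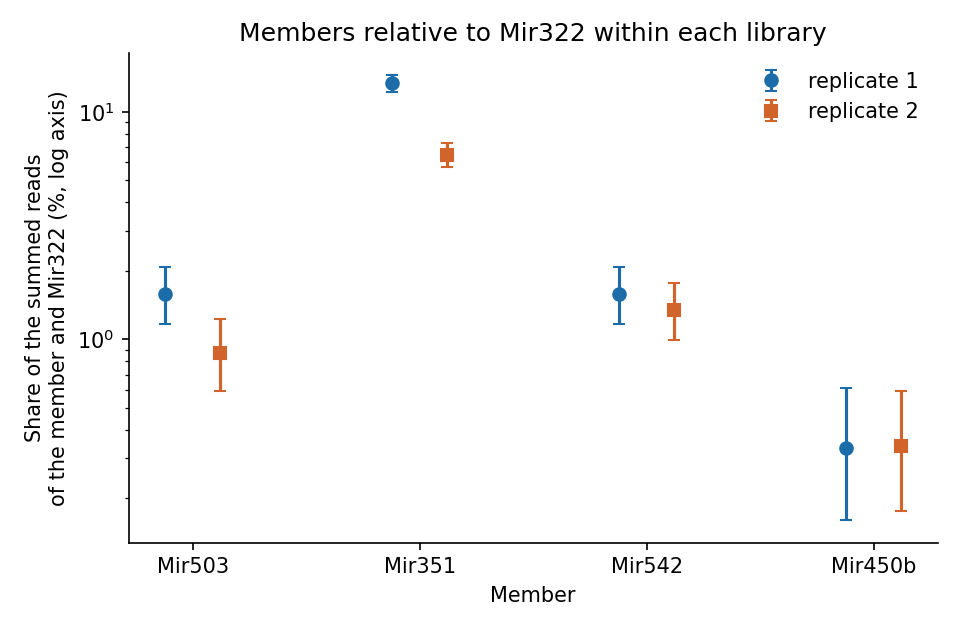
Reads of Mir503, Mir351, Mir542 and Mir450b as a share of their summed reads with Mir322 (%, log axis), with exact 95% intervals; circles are replicate 1, squares replicate 2. Mir351 held 13.4% in replicate 1 and 6.48% in replicate 2, while the intervals of Mir503, Mir542 and Mir450b overlap between the libraries. Such overlap is not a test of difference. Relative to Mir322, Mir503 was 1.83 times as high in replicate 1 as in replicate 2 (1.14 to 2.98).

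Genes with the same seed as a member act, in principle, on overlapping messenger RNAs, so the levels of seed partners are set beside the members. Mir322 held 37.4% of the summed reads of itself and the miR-15/16 family in replicate 1 (36.3 to 38.5) and 15.9% in replicate 2 (15.5 to 16.4). These shares leave out reads aligned to several places, as those of miR-16-5p, carried by both Mir16-1 and Mir16-2, would be, so they may be too high. By uniquely aligned reads it was the most abundant gene of this seed in replicate 1, ahead of Mir195a at 2154 CPM. In replicate 2 Mir195a, known with Mir497 for holding mouse muscle stem cells in quiescence, stood at 11867 CPM, above Mir322.

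Of the 8 listed genes of the miR-15/16 family 6 were detected, and 4 of these were lower in replicate 1, as was Mir322, with none higher. That is 66.7% lower, against 18.7% of all tested genes. The 6 genes are not independent units, since they lie in neighbouring pairs. These are Mir195a and Mir497 on chromosome 11, Mir15a and Mir16-1 on chromosome 14, and Mir15b and Mir16-2 on chromosome 3. In each pair with a Mir16 gene only the partner was called. In the exact test of edgeR these 4 kept their calls and Mir322 did not (adjusted p = 0.0782). Mir195a was at 0.147 times its TMM-scaled level in replicate 2 (0.141 to 0.153). Mir15a was at 0.326 times, Mir497 at 0.477 times and Mir15b at 0.514 times. Mir16-1, at 0.998 times, and Mir16-2, at 0.902 times, were not called, and both ratios were above 1 with total counts only, where Mir16-1 was called higher. Mir195b and Mir497b had 0 reads, and RefSeq gives Mir497b a mature strand with another seed. The median log2 ratio of the 6 detected genes was -1.01, against 0.01 over all tested genes. Mir16-1 and Mir16-2 have the same 5p strand and share 20 bases or more in a row with another gene, so their levels are uncertain. Mir497 shares such a run too, but runs were sought on either strand and Mir497b overlaps it on the opposite strand. An overlap of this kind need not cost Mir497 reads.

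Mir351 made up a smaller part of its seed group, 9.50% of the summed reads of itself and the miR-125 family in replicate 1 (8.69 to 10.4) and 5.66% in replicate 2 (4.99 to 6.39). The same limit holds for these shares, since Mir125b-1 and Mir125b-2 carry the same miR-125b-5p. By uniquely aligned reads Mir125a led that group with 3414 CPM in replicate 1 and 3079 CPM in replicate 2. Its ratio was 0.897 with TMM (0.857 to 0.938) and 1.11 with total counts only (1.06 to 1.16), called in opposite directions, so no direction is given. Mir125b-1, at 245 and 228 CPM, and Mir125b-2, at 135 and 115 CPM, were not called. Their levels are uncertain because both carry that 5p strand.

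**Figure D4:**
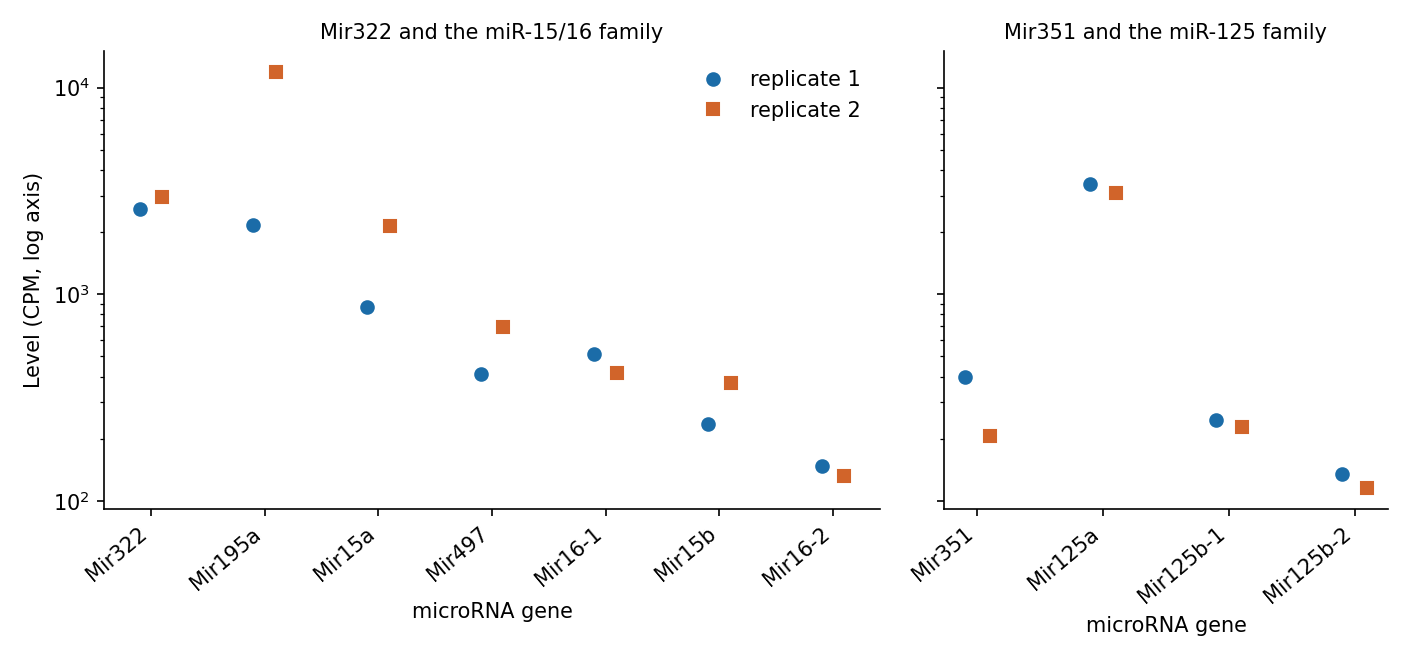
Levels (CPM, log axis) of Mir322 with the genes of the miR-15/16 family that had reads, and of Mir351 with the miR-125 family; circles are replicate 1, squares replicate 2. Mir195a stands at 2154 CPM in replicate 1 and 11867 CPM in replicate 2, on either side of Mir322.

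A list of 25 microRNA genes linked to myoblast differentiation served as the wider setting. Of these, 23 were detected; 6 were higher and 6 lower in replicate 1, 26.1% each way against 18.7% each way of all tested genes, with a median log2 ratio of -0.11. With total counts only 9 were higher and 4 lower, where 114 and 35 of all tested genes were. With edgeR 4 were higher and 3 lower, where 24 and 29 of all tested genes were. Of the 25 genes 20 share a run of at least 20 bases with another microRNA gene, read on either strand. Those with a copy elsewhere, among them the genes of miR-1a and miR-133a, may lose reads to several alignments. A run shared with a gene that overlaps on the opposite strand need not cost reads. By uniquely aligned reads the most abundant were Mir206, Mir29a, Mir486, Mir27b and Mir214. Mir27b, known in mouse for repression of Pax3 in muscle progenitors, was at 3316 CPM in replicate 1 and 3911 CPM in replicate 2, and Mir214 was at 2701 and 2164 CPM, both close to Mir322. Mir206, the skeletal muscle microRNA, was at 32948 and 32931 CPM, Mir29a, a repressor of matrix genes, at 11704 and 16627 CPM, and Mir486, a muscle-enriched microRNA within Ank1, at 5152 and 3706 CPM. The genes nearest to Mir322 in log2(CPM + 1) over the 2 libraries were Mir30e, Mir98, Mir10a, Mir125a and Mir214, at Euclidean distances of 0.118 to 0.457.

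On chromosome X, 31 of 142 microRNA genes were detected (21.8%). The cluster held 17.2% of all X-linked microRNA reads in replicate 1 (16.7 to 17.7) and 22% in replicate 2 (21.4 to 22.7). Mir322 ranked 2 among X-linked genes by mean level, after Mirlet7f-2, at 5965 and 4683 CPM in replicates 1 and 2, and before Mir98, at 2582 and 2509 CPM. In replicate 1 Mir322 and Mir98 had 2991 and 2988 reads, a difference within counting error. Mir361, Mir676 and Mir652 came next, with means of 1073 to 1401 CPM. Mir351 ranked 8, Mir542 16, Mir503 18 and Mir450b 25. Apart from the members, 5 of the 26 detected X-linked genes were higher and 5 lower in replicate 1. Of all tested genes 18.7% were called each way, so these counts are near that share. The median log2 ratio of the 26 was 0.04. With total counts only 11 were higher and 2 lower, where 114 and 35 of all 321 tested genes were. With edgeR 3 were higher and 1 lower, where 24 and 29 of the 321 were.

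Another 3 microRNA clusters of this chromosome were set beside the members. Of detected genes, 25% were called higher in replicate 1 and 25% lower in the Clcn5 cluster. The shares were 100% and 0% in the Mir221 and Mir222 pair, and 0% and 50% in the Mir106a-363 cluster. Over all tested genes they were 18.7% and 18.7%, and each cluster had only 2 to 4 detected genes. In the cluster in Clcn5, matched for 5 of 6 listed genes, Mir501 was higher in replicate 1, at 2.27 times its level in replicate 2, Mir188 was lower, at 0.476 times on 20 and 35 reads, and Mir532, its most abundant member, had a ratio of 1.02 (0.874 to 1.20). The call of Mir188 was lost with total counts only and with edgeR. In the Mir221 and Mir222 pair, which promotes proliferation in muscle progenitors, both were higher in replicate 1, Mir221 at 2.34 times (2.08 to 2.64) and Mir222 at 2.74 times (1.72 to 4.53). In the Mir106a-363 cluster 4 of 6 members were detected, with 2 lower in replicate 1, Mir363 and Mir20b, on 3 to 19 reads. With edgeR 1 of the 4 was lower, and with total counts only 2 were lower and 1 higher. Mir92-2, the most abundant of them and the 1 called higher with total counts only, was not called with TMM, at a ratio of 1.31 (0.922 to 1.88).

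**Figure D5:**
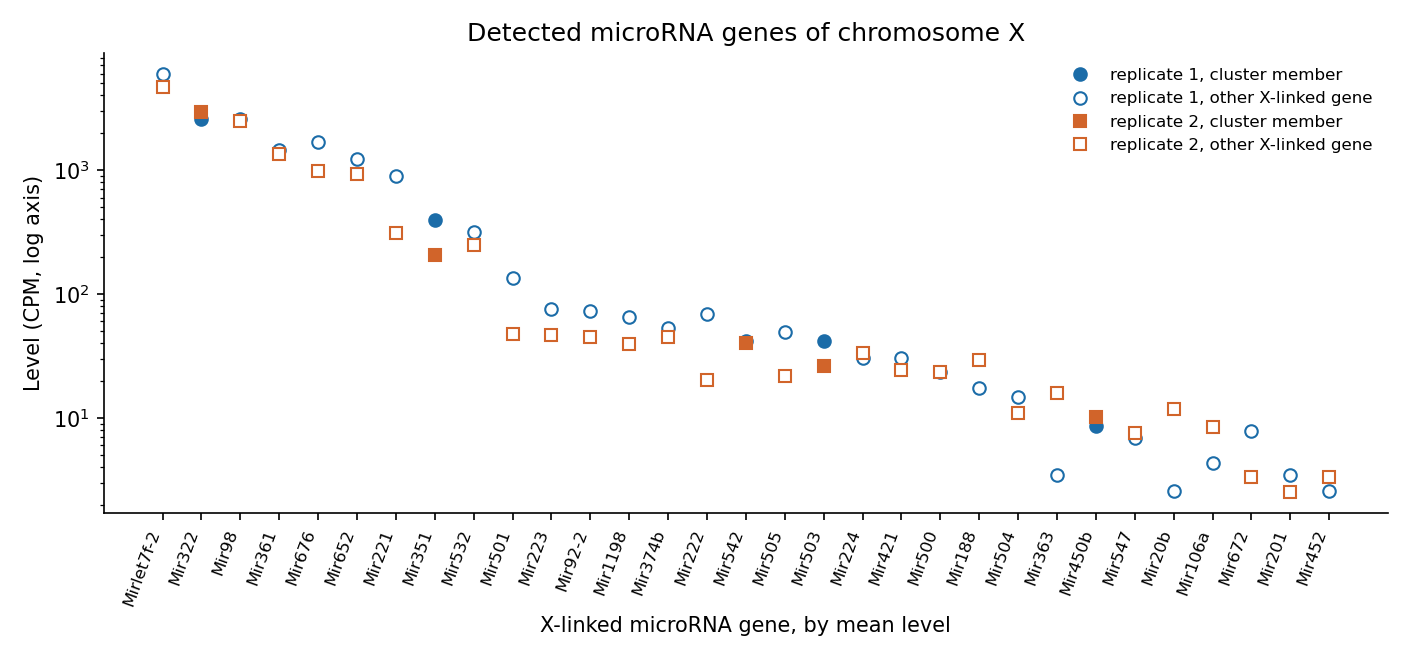
Levels (CPM, log axis) of the 31 detected microRNA genes of chromosome X, ordered by mean level, with filled symbols for cluster members; circles are replicate 1, squares replicate 2. Mir322 stands in position 2, and Mir450b, at 8.64 and 10.1 CPM, in position 25.

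Some markers of other cell types were also called between these libraries. Over all tested genes, 18.7% were called higher and 18.7% lower in replicate 1. With edgeR 53 of 321 genes were called. The calls left among markers were 1 endothelial, 1 erythroid and 1 skeletal muscle marker, all lower in replicate 1. Endothelial markers had a summed level of 80768 CPM (replicate 1) and 137674 CPM (replicate 2), nearly all from Mir126a, the 1 of 2 that was detected, which was called lower in replicate 1. Smooth muscle markers summed to 50799 and 42140 CPM in replicates 1 and 2, with 1 of 2 called higher in replicate 1 and 1 lower. Leukocyte markers summed to 3182 and 2252 CPM, with 1 of 4 detected genes called higher in replicate 1 and Mir142b at 0 in both. Fibroblast markers summed to 2719 and 2177 CPM, nearly all from Mir214, with 0 of 3 detected genes called. The other 3 of the 4 listed, the Mir199 genes, share a run of 20 bases with another gene and may have lost reads. Erythroid markers summed to 163 and 153 CPM, with 1 of 2 called lower in replicate 1. The nerve markers Mir9 and Mir124a had 0 reads in replicate 1 and 1 in replicate 2, with 5 of the 6 genes at 0 in both; all 6 share a run of 20 bases with another gene, so these counts do not show a low level. The liver microRNA Mir122 had 12 and 13 reads. The skeletal muscle markers summed to 38697 and 37311 CPM, mostly from Mir206. Of the 8 detected genes 2 were higher (25%) and 3 lower (37.5%) in replicate 1. In this list 6 of 9 genes share a run of 20 bases with another gene, among them those of miR-1a and miR-133a, which may have lost reads. With total counts only, 114 of all 321 tested genes were higher and 35 lower in replicate 1. Among markers, 3 leukocyte, 3 skeletal muscle, 2 smooth muscle, 1 fibroblast and 1 erythroid were higher there. Lower were 2 skeletal muscle, 1 erythroid and 1 endothelial marker, and no smooth muscle marker. The part of these cell types in the differences of Mir322 and Mir351 was not tested.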

How the data were processed

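Small RNA libraries of gastrocnemius from 1 group were analysed, biological replicates 1 and 2. The deposited files hold raw read counts per microRNA gene, in columns for both strands together, the sense strand and the antisense strand; the authors' text descriptions name mm10 and annotation M21 (GENCODE). How reads were trimmed and aligned is not given here. The layout is that of STAR gene counts. The 4 leading lines of totals, which name no gene and held 81.1% of reads in replicate 1 and 82.0% in replicate 2, were left out of library sizes and tests.

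The sense column was used. CPM was computed over sense totals, TMM factors (1.11 and 0.899) with edgeR 4.0.16 in R 4.3.3, and log2 ratios with a pseudocount of 1 CPM. The two-sided exact conditional binomial test was adjusted by Benjamini-Hochberg. The steps were run on simulated counts that held counting error only. This does not show how the test behaves with spread beyond counting error. Alternatives were DESeq2 1.42.0 size factors, total counts, filters, the column of both strands, loci sharing 20 bases, denominators, the pseudocount, the edgeR exact test and leaving out each replicate. Python 3.11.15 and scipy 1.17.1 did the rest.

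Genes named were all members, all of both seed families, the 5 most abundant of the differentiation and X-linked lists, and the 5 nearest to Mir322. Other X-linked genes were named after their values were seen, from listed clusters. Members and lists were chosen with earlier results of these data known.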

Additional observations from a re-analysis of the deposited data

How the results depend on the processing

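The cluster's share of sense reads, 0.316%, was 0.45% with the column of both strands, 0.513% without genes sharing a run of 20 bases and 0.0583% with all reads as the denominator; in each case the denominator itself differs. Leaving out a replicate gave 0.308% to 0.324%, and 5 members detected in either case; 4 were detected with all reads as the denominator or at 10 CPM, and 6 at 1 read or more in both libraries. Mir322 and Mir351 kept their directions under all scalings, filters and columns run. In the exact test of edgeR with the dispersion set to 0.01 the genes called fell to 53, against 120, and the members called to 1, Mir351, against 2. With total counts only, 114 genes were higher and 35 lower in replicate 1, against 60 and 60 with TMM. There the log2 ratio of Mir542 turned to 0.04 (exact binomial adjusted p = 0.993), against -0.26 with TMM. Of 39 single ratios of members under alternatives, 37 kept direction and call. Of 33 levels under alternatives, 16 moved by more than the spread between libraries. Depth limits Mir503, Mir542 and Mir450b, at 48 reads or fewer. Mir450a-1 and Mir450a-2 are limited also by reads that align to both of them, which greater depth would not recover. No paired analysis was possible because the series has 1 group.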
